A study of Mus musculus with 18 samples.

Results

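The genes described here are the receptors for prolactin (Prlr) and growth hormone (Ghr), the feedback inhibitors Cish, Socs1, Socs2 and Socs3, and the transcription factors Stat3, Stat5a and Stat5b. They were chosen by symbol, with no measured value in the rule, and are 9 of the 54186 gene symbols counted. All 9 passed the filter on low counts and were among the 20244 genes tested. The RNA came from whole pancreatic islets of 18 mice, and each of the 3 genotypes had 6 mice with 1 library each. All mice were 6 weeks old and on the FVB background. The hIAPP mice carried a transgene for human islet amyloid polypeptide (IAPP), a peptide that beta cells secrete with insulin, and the rIAPP mice carried one for the rodent form. In both the insulin II promoter drove the transgene in beta cells, and WT mice had neither transgene. WT libraries served both transgene comparisons, so these are not independent, and the difference between them is the comparison of hIAPP with rIAPP. The p-values measure the spread between mice.

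Prolactin and placental lactogens act through the prolactin receptor, and growth hormone through its own receptor. Both receptors signal through the kinase JAK2 to STAT5A and STAT5B, which switch on genes such as Cish and Socs2 that then dampen the signal. In beta cells lactogens are known for driving growth and serotonin synthesis, with strong induction of Tph1, during pregnancy. SOCS1 and SOCS3 are better known as brakes on interferon signalling and on interleukin 6 signalling through STAT3. Some beta cell transgenes carry a human growth hormone minigene, whose product can act on the prolactin receptor. Whether the IAPP transgenes carry one is not given in the sources used here, and the counts cover mouse gene symbols.

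Total counts (M, mega) ranged from 144 to 166.2 M in WT, 109.6 to 142 M in hIAPP and 128 to 158 M in rIAPP. Islet markers fitted the labelled tissue, with all 16 beta, alpha, delta and PP cell markers above 0 in every genotype. The 8 beta cell markers summed to 123620 to 154744 counts per M counts of the scaled library total (CPM) in WT, 66664 to 123688 in hIAPP and 73041 to 100714 in rIAPP, and none was at 0 in a genotype. Of the 8, 6 fell in hIAPP and 7 in rIAPP against WT. The 8 include Iapp, and whether reads of the rodent transgene were counted under it was not tested. The 14 acinar markers found in the table, genes of the digestive enzymes and their regulators, gave a mean log2 CPM of 4.503 to 6.28 in WT, 5.61 to 8.16 in hIAPP and 6.53 to 8.43 in rIAPP, so WT and rIAPP did not overlap. The 11 macrophage markers summed to 139 to 162 CPM in WT, 375 to 752 in hIAPP and 94.1 to 109.8 in rIAPP. In bulk RNA, fewer cells of a type and less RNA per cell cannot be told apart, and this holds for every value below.

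Against WT, none of the 9 genes passed the test in hIAPP islets, while Ghr, Stat5a and Stat5b fell and Socs3 rose in rIAPP islets. The classic STAT5 targets Cish and Socs2 passed in neither transgenic genotype. Called here means a Benjamini-Hochberg adjusted p under 0.05 over all genes tested in edgeR's quasi-likelihood test. For hIAPP against WT the count was 0 of 9 in edgeR and limma-voom and 1 of 9 in DESeq2, beside 15.8% of all genes tested in edgeR, and 2 of the 9 had an unadjusted p under 0.05 in edgeR. In rIAPP against WT it was 4 of 9, beside 26.8% of all genes, with 1 higher and 3 lower beside 14.1% and 12.6%. In hIAPP against rIAPP it was 1 of 9, Prlr, beside 27.6% of all genes, and Prlr was higher beside 13.5% higher and 14.1% lower. Mice of the 2 groups did not overlap for 1 of the 9 genes in hIAPP against WT (Socs1, lower), beside 6.63% of all genes (3.74% higher and 2.89% lower). The count was 2 of 9 in rIAPP against WT (Ghr and Stat5a, lower), beside 14.9% (8.13% higher and 6.75% lower). It was 0 of 9 in hIAPP against rIAPP, beside 13.4% (6.52% higher and 6.85% lower). The median log2 fold change of the 9 genes was -0.08, -0.33 and 0.24 in these comparisons, beside -0.01, -0.01 and 0.00 over all genes tested.

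**Figure D1:**
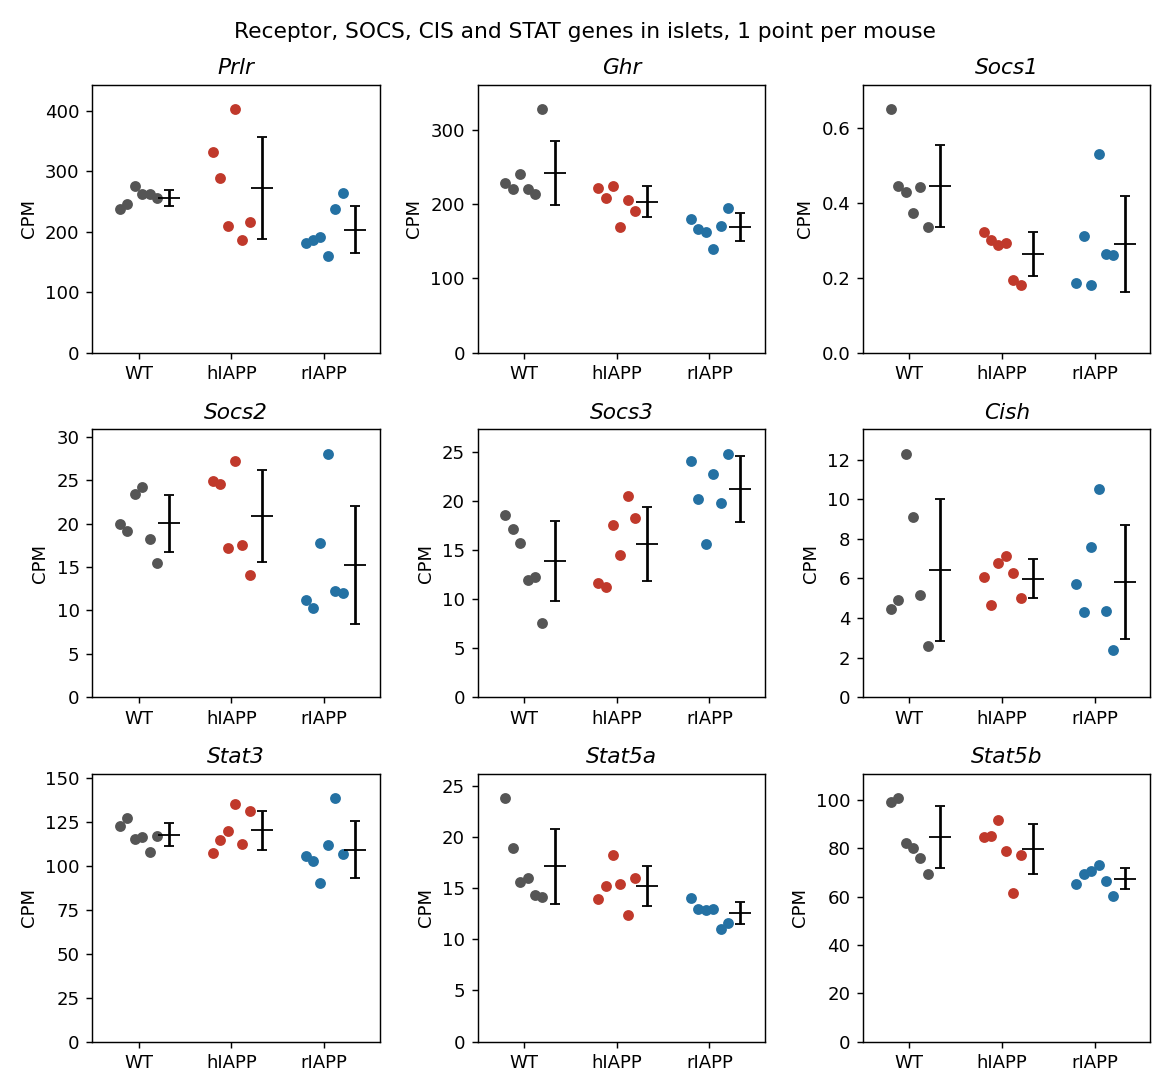
Level of each of the 9 genes in CPM (vertical axes, starting at 0) in WT, hIAPP and rIAPP islets, with 1 point per mouse and the mean ± SD of 6 mice beside the points. Ghr and Stat5a in rIAPP lie below all WT points, and Prlr is more scattered in hIAPP (186 to 402.2 CPM) than in WT (237 to 275 CPM).

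Prlr encodes the receptor for prolactin and placental lactogens and lies on chromosome 15 (GRCm38, 10177238 to 10349180, plus strand). It ranged from 237 to 275 CPM in WT with a median of 258. In hIAPP it ranged from 186 to 402.2 with a median of 252. In rIAPP it ranged from 159.5 to 264 with a median of 189. The 6 WT mice lay close together, hIAPP mice fell on both sides of them, and 5 of the 6 rIAPP mice lay below every WT mouse, though the highest of those 5 (237.28) all but matched the lowest WT mouse (237.36). The means were 256 ± 13.2 CPM (SD, n = 6) in WT, 272 ± 83.9 in hIAPP and 203 ± 39.2 in rIAPP.

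In hIAPP against WT the log2 fold change of Prlr was 0.09 ± 0.16 (SE, edgeR adjusted p = 0.772), and its 95% interval ran from 0.850 to 1.33 times WT. For rIAPP against WT it was -0.33 ± 0.16 (edgeR adjusted p = 0.128), with a 95% interval from 0.634 to 0.994 times WT. Prlr passed as lower there in 2 of 29 alternative settings. Prlr was higher in hIAPP than in rIAPP by a log2 of 0.42 ± 0.16 (edgeR adjusted p = 0.0494). That call was lost in 20 of 29 alternative settings. They include leaving out hIAPP 4, the mouse with the highest level (log2 fold change 0.28, edgeR adjusted p = 0.153). Counts per gene do not separate the long and short forms of the receptor. The gene model Gm21973 overlaps Prlr on the same strand, and it had 0 to 5 counts in any library.

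The sequence upstream of 1 of the 3 RefSeq transcript starts of Prlr is shown because it holds the letters TTCNNNGAA, the pattern that STAT proteins are known to bind. The motif reads the same on both strands, is in capitals below, and ends 101 bases before that start. The window is chr15:10223656-10223905, plus strand, from RefSeq on GRCm38.p6, and it lies in an intron of the longer gene model.

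Prlr: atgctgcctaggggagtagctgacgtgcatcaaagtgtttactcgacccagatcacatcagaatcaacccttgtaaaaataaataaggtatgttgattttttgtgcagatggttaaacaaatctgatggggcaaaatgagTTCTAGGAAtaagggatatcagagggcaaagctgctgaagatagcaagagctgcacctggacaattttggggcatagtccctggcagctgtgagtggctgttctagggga

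Of the 13 upstream windows of 250 bases that RefSeq gives for 8 of the 9 genes, 2 held the motif, 1 at Prlr and 1 at Socs3. Of all 32851 windows of that length, 7.02% held it. The match describes letters in a window, and no binding was measured.

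Ghr encodes the growth hormone receptor and lies on the same chromosome (15, 3317760 to 3583492, minus strand). WT mice ranged from 214 to 328 CPM with a median of 225. In hIAPP the range was 169 to 225 and the median 207. In rIAPP the range was 139 to 195 and the median 169. All 6 rIAPP mice lay below all 6 WT mice, hIAPP overlapped both other genotypes, and WT 6 stood above the other WT mice, of which the next highest had 240.3.

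Mean Ghr was 242 ± 43.1 CPM in WT (SD, n = 6), 203 ± 20.8 in hIAPP and 169 ± 18.7 in rIAPP. It fell in rIAPP by a log2 of 0.52 ± 0.10 against WT (edgeR adjusted p = 0.000569), to between 0.603 and 0.809 times WT (95% interval). Without WT 6 the log2 fold change was -0.41 (edgeR adjusted p = 0.000702). In hIAPP the log2 fold change was -0.25 ± 0.10 (edgeR adjusted p = 0.101), and in hIAPP against rIAPP it was 0.27 ± 0.10 (edgeR adjusted p = 0.0558).

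The ligands of these receptors were all but uncounted. Prl, Gh and Prl3d1, which encode prolactin, growth hormone and a placental lactogen, had 0 counts in all 18 libraries, and Prl3b1, which encodes another placental lactogen, had at most 2 counts, in 1 library. JAK2, the kinase that both receptors share, was encoded by a gene that passed in none of the 3 comparisons. Jak2, named outside the naming rule because of this role, averaged 51.8 ± 3.53 CPM in WT (SD, n = 6), 52.2 ± 3.59 in hIAPP and 53.6 ± 2.66 in rIAPP, with log2 fold changes against WT of 0.01 ± 0.06 and 0.05 ± 0.06 (edgeR adjusted p = 0.921 and 0.584).

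Cish encodes the STAT5-induced inhibitor CIS and lies on chromosome 9 (107296026 to 107302784, plus strand). In WT it ranged from 2.61 to 12.3 CPM with a median of 5.05. Among hIAPP mice it ranged from 4.67 to 7.12 with a median of 6.19. Among rIAPP mice the range was 2.38 to 10.5 and the median 5.04. The 3 genotypes overlapped, and WT held both the highest mouse and 1 of the lowest.

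The log2 fold change of Cish against WT was -0.10 ± 0.32 in hIAPP and -0.15 ± 0.32 in rIAPP (edgeR adjusted p = 0.882 and 0.799). The 95% intervals reached from 0.584 to 1.49 times WT in hIAPP and from 0.566 to 1.44 times in rIAPP, so changes within those bounds were not excluded. The gene models Gm17040 and Gm17041 overlap Cish on the opposite strand and had 0 to 10 counts in any library.

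Socs2 encodes an inhibitor best known for restraining growth hormone signalling and lies on chromosome 10 (95385362 to 95417180, minus strand). WT mice ranged from 15.4 to 24.2 CPM with a median of 19.5. The hIAPP mice ranged from 14.0 to 27.2 with a median of 21.0. The rIAPP mice ranged from 10.3 to 28.0 with a median of 12.1. Of the rIAPP mice 4 lay below every WT mouse, while rIAPP 4 was the highest of all 18.

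Socs2 had a log2 fold change against WT of 0.06 ± 0.21 in hIAPP and -0.40 ± 0.22 in rIAPP (edgeR adjusted p = 0.897 and 0.199). The 95% interval ran from 0.764 to 1.42 times WT in hIAPP and from 0.557 to 1.04 times in rIAPP. Without rIAPP 4, which also had the highest Socs1 and Cish and the lowest Prlr and Ghr of its genotype, Socs2 in rIAPP against WT was at -0.66 and passed as lower (edgeR adjusted p = 0.00702). It then also passed as higher in hIAPP than in rIAPP (log2 fold change 0.72, edgeR adjusted p = 0.00383).

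Socs1 encodes an inhibitor of JAK kinases in interferon signalling and lies on chromosome 16 (10782240 to 10785536, minus strand). It was the lowest of the 9 genes, with 22 to 97 counts per library. In WT it ranged from 0.335 to 0.649 CPM with a median of 0.435. In hIAPP the range was 0.182 to 0.322 and the median 0.290. In rIAPP the range was 0.180 to 0.530 and the median 0.262. All hIAPP mice lay below all WT mice, a pattern that 2.89% of all genes tested showed in this direction.

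The log2 fold change of Socs1 was -0.76 ± 0.27 in hIAPP against WT (edgeR adjusted p = 0.0594), which missed the threshold. DESeq2 gave an adjusted p of 0.0374. Against WT in rIAPP it was -0.62 ± 0.26 (edgeR adjusted p = 0.0919). Without rIAPP 4 this became -0.89 (edgeR adjusted p = 0.0104), and 6 of the 9 genes were then called in rIAPP against WT. Of all 20464 genes tested without rIAPP 4, 2684 were higher and 2492 lower in that comparison.

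Socs3 encodes the brake on signalling by interleukin 6 type receptors and the leptin receptor, and lies on chromosome 11 (117966079 to 117970047, minus strand). Its RefSeq upstream window is shown because it is the other window that holds the motif, here ending 145 bases before the RefSeq start. The stretch without annotated exon is chr11:117969452-117969616, minus strand, on GRCm38.p6, with the motif in capitals. It lies inside the longer gene model, whose own start on this strand is at 117970047.

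Socs3: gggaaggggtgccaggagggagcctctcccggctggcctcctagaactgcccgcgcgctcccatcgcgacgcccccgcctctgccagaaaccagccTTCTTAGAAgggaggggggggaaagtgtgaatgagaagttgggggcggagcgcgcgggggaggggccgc

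WT mice ranged from 7.60 to 18.6 CPM of Socs3 with a median of 14.0. In hIAPP the range was 11.3 to 20.6 and the median 16.0. In rIAPP the range was 15.7 to 24.8 and the median 21.5. Of the 6 rIAPP mice 5 lay above every WT mouse, and hIAPP mice overlapped both other genotypes.

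Socs3 averaged 13.9 ± 4.06 CPM in WT (SD, n = 6), 15.6 ± 3.77 in hIAPP and 21.2 ± 3.40 in rIAPP. It rose in rIAPP against WT by a log2 of 0.61 ± 0.18 (edgeR adjusted p = 0.0174), to between 1.17 and 1.99 times WT (95% interval). The log2 fold change was 0.17 ± 0.18 in hIAPP against WT (edgeR adjusted p = 0.614) and -0.44 ± 0.18 in hIAPP against rIAPP (edgeR adjusted p = 0.0831).

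The STAT genes lie side by side on chromosome 11, Stat5b at 100780731 to 100850724 (minus strand), Stat5a at 100859351 to 100885169 (plus strand) and Stat3 at 100885098 to 100939540 (minus strand). STAT5A and STAT5B are close paralogs that carry the lactogen and growth hormone signals, and the split of shared reads between them depends on how the counting treated them. Stat3 and Stat5a overlap by 72 bases on opposite strands, and the strand setting is not given in the sources used here.

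Stat5a ranged from 14.1 to 23.8 CPM in WT with a median of 15.8. In hIAPP it ranged from 12.4 to 18.2 with a median of 15.3. In rIAPP it ranged from 11.0 to 14.0 with a median of 12.9. All rIAPP mice lay below all WT mice, though the highest rIAPP mouse (14.05) came close to the lowest WT mouse (14.11).

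Mean Stat5a was 17.1 ± 3.69 CPM in WT (SD, n = 6), 15.2 ± 1.96 in hIAPP and 12.6 ± 1.08 in rIAPP. It fell in rIAPP against WT by a log2 of 0.44 ± 0.11 (edgeR adjusted p = 0.0058). Without WT 1, the mouse with the highest level, the log2 fold change was -0.33 (edgeR adjusted p = 0.0149). In hIAPP against WT it was -0.17 ± 0.11 (edgeR adjusted p = 0.351), and in hIAPP against rIAPP 0.27 ± 0.11 (edgeR adjusted p = 0.0846).

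Stat5b ranged from 69.3 to 101 CPM in WT with a median of 81.2. In hIAPP it ranged from 61.5 to 91.6 with a median of 81.7. In rIAPP it ranged from 60.2 to 73.1 with a median of 67.8. WT and rIAPP overlapped, since WT 6 lay within the rIAPP range.

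Mean Stat5b was 84.6 ± 12.7 CPM in WT (SD, n = 6), 79.8 ± 10.4 in hIAPP and 67.4 ± 4.51 in rIAPP. It fell in rIAPP against WT by a log2 of 0.33 ± 0.09 (edgeR adjusted p = 0.0133). In hIAPP against WT the log2 fold change was -0.08 ± 0.09 (edgeR adjusted p = 0.628), and in hIAPP against rIAPP it was 0.24 ± 0.09 (edgeR adjusted p = 0.0628). The ratio of Stat5b to Stat5a in CPM per kilobase of merged exon had a median of 6.61 in WT, 6.52 in hIAPP and 6.95 in rIAPP.

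Stat3 encodes the main transducer of interleukin 6 type receptors and ranged from 108 to 127 CPM in WT with a median of 117. In hIAPP it ranged from 107 to 135 with a median of 117, and in rIAPP from 90.0 to 138 with a median of 106. The genotypes overlapped, and rIAPP held both the lowest and the highest mouse. The log2 fold change against WT was 0.03 ± 0.08 in hIAPP and -0.11 ± 0.08 in rIAPP (edgeR adjusted p = 0.865 and 0.376).

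**Figure D2:**
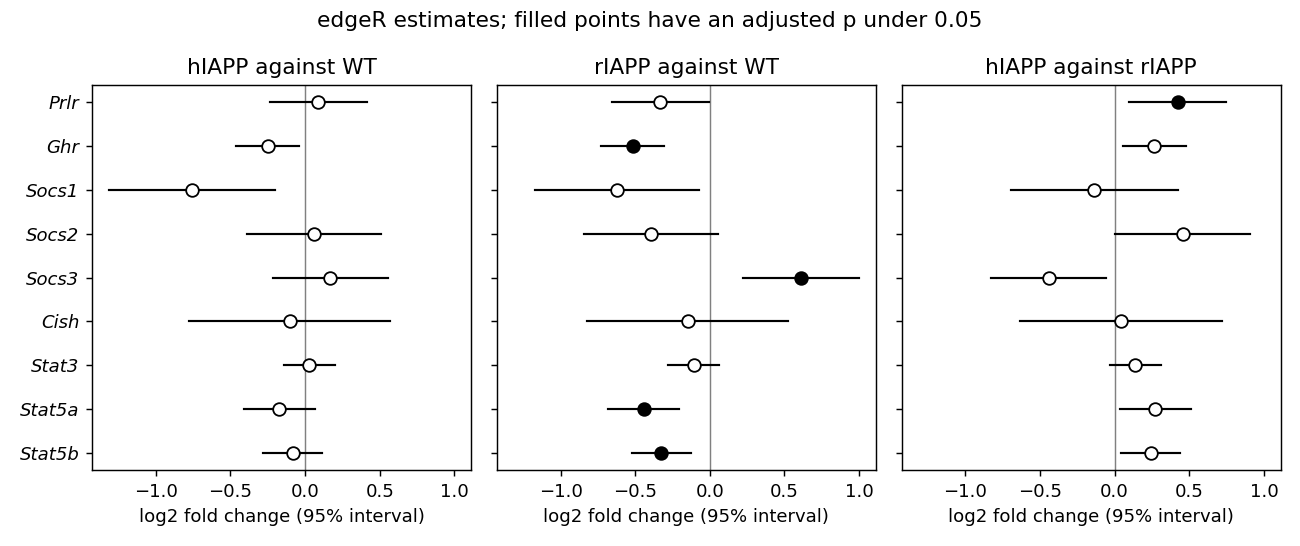
Log2 fold change of each gene with its 95% interval (horizontal axes) in the 3 comparisons, from the edgeR fit of all 18 libraries. Filled points passed the test, which were none for hIAPP against WT, 4 for rIAPP against WT and Prlr alone for hIAPP against rIAPP.

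With the acinar score of each library as a covariate, none of the 4 calls in rIAPP against WT passed. Ghr was then at a log2 fold change of -0.49 (edgeR adjusted p = 0.0734) and Stat5a at -0.46 (edgeR adjusted p = 0.167), each within 0.1 of the value without it. Stat5b was at -0.16 (edgeR adjusted p = 0.613) and Socs3 at 0.34 (edgeR adjusted p = 0.598). Since the acinar scores of WT and rIAPP did not overlap, acinar content and genotype cannot be told apart in this comparison. The summed beta cell, macrophage, lymphocyte, endothelial, and stellate and mesenchymal markers of WT and rIAPP did not overlap either. Lymphocyte markers summed to 14.4 to 18.7 CPM in WT and 4.28 to 7.63 in rIAPP. Endothelial markers summed to 625 to 714 CPM in WT and 781 to 880 in rIAPP. Stellate and mesenchymal markers summed to 781 to 1110 and 1364 to 2233. These cell contents and genotype cannot be told apart either, and which of them goes with the 4 genes was not tested. Scaling by library totals alone also ended the Stat5b call (log2 fold change -0.21, edgeR adjusted p = 0.0641), but not the other 3.

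**Figure D3:**
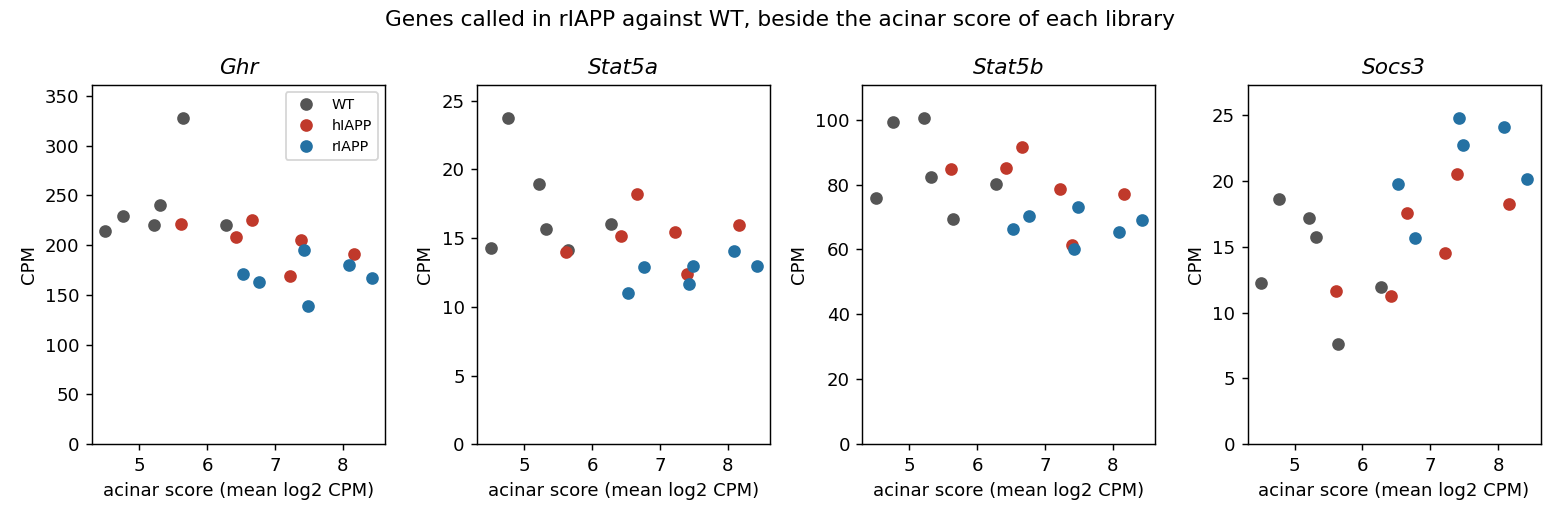
Level of Ghr, Stat5a, Stat5b and Socs3 in CPM (vertical axes) against the mean log2 CPM of 14 acinar markers (horizontal axes), 1 point per mouse, coloured by genotype. The WT mice lie to the left (4.503 to 6.28) of all rIAPP mice (6.53 to 8.43), with hIAPP mice between and among them.

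Per kilobase of merged exon, the order of mean levels in WT began with Ghr (26.7 CPM per kb), Prlr (16.7), Stat5b (15.3) and Stat3 (12.4). Below these came Socs3 (4.81), Stat5a (2.40), Socs2 (2.10), Cish (1.002) and Socs1 (0.153). Neighbours in this order overlapped between mice except at 3 steps, from Ghr to Prlr, from Stat3 to Socs3 and from Cish to Socs1. In hIAPP Socs2 stood just above Stat5a, with overlap, and in rIAPP the order was that of WT. By mean, the receptor genes thus had the highest levels and the feedback genes Socs2, Cish and Socs1 the lowest in all 3 genotypes, with Stat5a among the latter. Prlr overlapped Stat5b in all 3 genotypes, and Ghr overlapped Prlr in hIAPP and rIAPP. The lengths take in all annotated exons of a gene (15.339 kb for Prlr, 9.053 for Ghr and 5.539 for Stat5b), so the order depends on the annotation.

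Profiles over the 18 libraries were compared by the root mean square difference of log2 CPM after each gene was centred on its own mean, among 12881 named genes with a mean of at least 1 CPM. Stat5a was nearest to Stat5b (0.126) and then to Tollip (0.135). Stat5b was nearest to Nipal3 (0.0628) and Mta1 (0.0923), and Ghr to Larp1b (0.0963) and Kcnmb2 (0.0981). Socs3 was nearest to Junb (0.243) and Sult2b1 (0.247), and Prlr to Chic1 and Oxct1 (both 0.200). The libraries share genotype and cell makeup, so these distances are a description.

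Many calls in the lists of related genes below were lost with marker scores of other cells as a covariate, and so were calls over all genes. Of these lists 31 genes were called in hIAPP against WT, and all 31 calls were lost with the macrophage score as a covariate and 26 with the acinar score. Over all genes, 1683 higher and 1525 lower became 5 and 29 with the macrophage score, and 485 and 290 with the acinar score. In rIAPP against WT 16 of 26 calls were lost with the acinar score and 1 with the macrophage score. The 2860 higher and 2557 lower over all genes became 1142 and 873 with the acinar score, and 3044 and 2729 with the macrophage score. In hIAPP against rIAPP 26 of 29 were lost with the macrophage score and 2 with the acinar score. The 2730 higher and 2856 lower over all genes became 508 and 706 with the macrophage score, and 2586 and 2808 with the acinar score. The summed macrophage markers of hIAPP mice overlapped neither other genotype, so macrophage content and the hIAPP genotype cannot be told apart in either comparison.

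Among the 8 other JAK and STAT genes, 3 rose, 3 fell and 2 did not pass in hIAPP against WT, with a median log2 fold change of 0.06. Of all genes tested, 8.31% were higher and 7.53% lower in that comparison. Stat4, which transduces interleukin 12, was lower in hIAPP (0.315 ± 0.0780 CPM) than in WT (0.735 ± 0.200), a log2 fold change of -1.22 ± 0.23 (edgeR adjusted p = 0.00129). Tyk2, a JAK kinase of interferon receptors, rose by 0.37 ± 0.08, and Jak3, the kinase of the common gamma chain, by 0.60 ± 0.16 (edgeR adjusted p = 0.00319 and 0.0136). With the acinar score 0 of the 8 rose and 1 fell, and with the macrophage score none passed, with Jak3 at -0.52 (edgeR adjusted p = 0.687). The Jak3 call was also lost without hIAPP 5 and hIAPP 6 (0.42, edgeR adjusted p = 0.0881). Both mice had the lowest beta cell scores of the hIAPP mice (mean log2 CPM of 9.94 and 10.2). Their macrophage scores (4.89 and 4.71) and acinar scores (7.39 and 8.16) were the highest of that genotype. Without both, 1037 of 20600 genes were higher and 638 lower in hIAPP against WT.

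For rIAPP against WT, 1 of these 8 rose and 3 fell, with a median of -0.07, beside 14.1% of all genes higher and 12.6% lower. With library totals alone it was 3 rising and 1 falling, beside 4554 higher and 1404 lower of all 20244 genes. Jak1, the kinase of interleukin 6 type and interferon receptors, fell from 184 ± 10.9 CPM in WT (SD, n = 6) to 136 ± 10.3 in rIAPP, a log2 fold change of -0.44 ± 0.06 (edgeR adjusted p = 5.06e-06), and all rIAPP mice lay below all WT mice, as for 6.75% of all genes. It remained called in all 29 alternatives. Stat6, which transduces interleukin 4, fell by 0.16 ± 0.05, while Jak3 rose by 0.46 ± 0.16 (edgeR adjusted p = 0.0349 and 0.0361). The Stat6 call was lost in 14 of 29 alternatives, among them library totals alone (edgeR adjusted p = 0.609). The Jak3 call was lost in 10 of 29, and with the acinar score its log2 fold change was 0.09 (edgeR adjusted p = 0.879).

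In hIAPP against rIAPP, 3 rose and 1 fell (median 0.07), beside 13.5% of all genes higher and 14.1% lower. Jak1 was higher in hIAPP by 0.27 ± 0.06, Stat6 by 0.32 ± 0.05 and Tyk2 by 0.35 ± 0.08 (edgeR adjusted p = 0.00118, 0.000128 and 0.0021). Stat4 was lower, with a log2 fold change of -0.83 ± 0.23 (edgeR adjusted p = 0.0105).

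Of 15 other feedback and modulator genes, 2 rose and 3 fell in hIAPP against WT (median -0.01), beside 8.31% of all genes higher and 7.53% lower. In rIAPP against WT 0 rose and 3 fell (median -0.03), beside 14.1% and 12.6%. With library totals alone the counts of the 15 became 5 and 0 in hIAPP, and 0 and 2 in rIAPP. That scaling moved all 20244 genes too, to 3139 higher and 480 lower in hIAPP, and 4554 and 1404 in rIAPP. In hIAPP 0 of the 15 passed with the acinar or the macrophage score, and without hIAPP 5 and hIAPP 6 it was 0 rising and 1 falling. In rIAPP 0 rose and 1 fell with the acinar score. Ptpn11, which encodes the phosphatase SHP2, averaged 227 ± 11.0 CPM in WT (SD, n = 6), 202 ± 14.1 in hIAPP and 168 ± 7.78 in rIAPP. It fell in rIAPP against WT by a log2 of 0.43 ± 0.05, and mice did not overlap (edgeR adjusted p = 3.75e-06), and it was called in all 29 alternatives. In hIAPP it fell by 0.17 ± 0.05 (edgeR adjusted p = 0.041), a call lost in 17 of 29, and with the macrophage score its log2 fold change was 0.12 (edgeR adjusted p = 0.793).

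Ptpn2, a phosphatase that acts on JAK1, JAK3 and STATs, fell in hIAPP against WT by 0.32 ± 0.08 and Pias2, an inhibitor of activated STATs, by 0.22 ± 0.06 (edgeR adjusted p = 0.00794 and 0.0161). Both calls were lost with library totals alone and with the acinar or the macrophage score, and that of Pias2 also without hIAPP 5 and hIAPP 6. Pias2 fell in rIAPP by 0.28 ± 0.06 (edgeR adjusted p = 0.00111), a call lost with the acinar score (-0.19, edgeR adjusted p = 0.249). Socs7, another SOCS gene, rose in hIAPP by 0.15 ± 0.05 and fell in rIAPP by 0.18 ± 0.05 against WT (edgeR adjusted p = 0.0423 and 0.0107). The hIAPP call was lost in 17 of 29 alternatives, and the rIAPP call with library totals alone (edgeR adjusted p = 0.389) and with the acinar score (-0.10, edgeR adjusted p = 0.554). The difference of Socs7 between hIAPP and rIAPP was 0.33 ± 0.05 (edgeR adjusted p = 3.85e-05), a call lost with the macrophage score (edgeR adjusted p = 0.151).

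**Figure D4:**
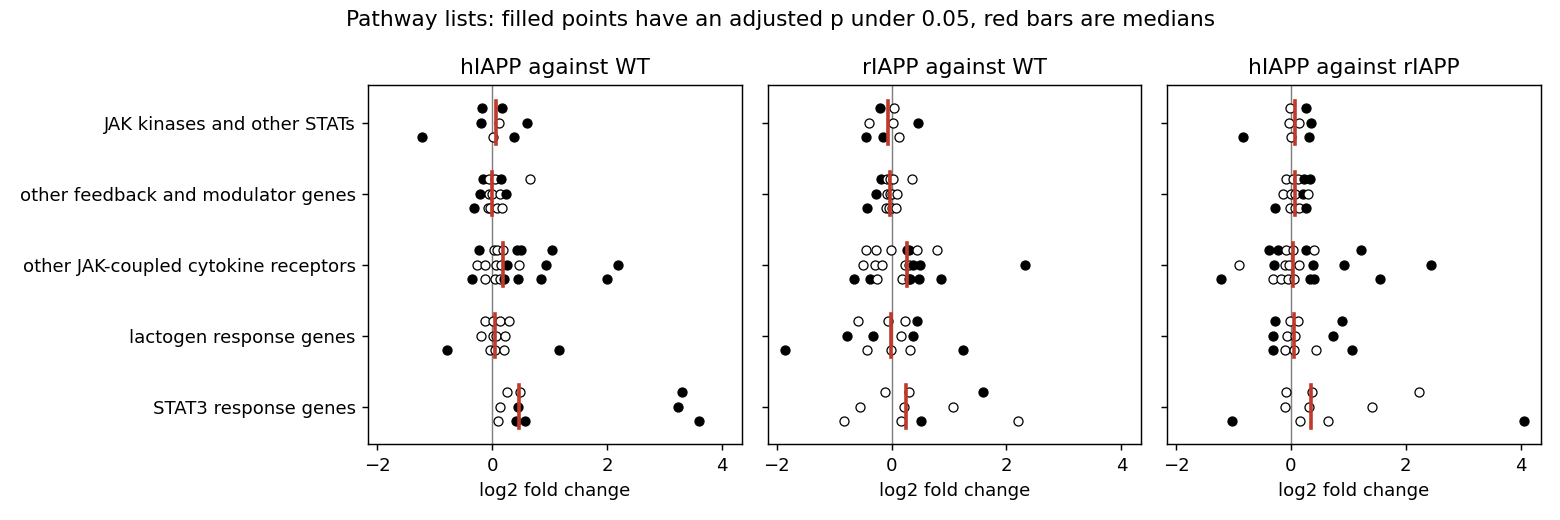
Log2 fold change of each tested gene in 5 pathway lists (horizontal axes, 1 panel per comparison), with filled points for genes that passed the test and a red bar at each list's median. In hIAPP against WT 10 of 23 cytokine receptors and 6 of 10 STAT3 response genes passed as higher, beside 8.31% of all genes, and most lactogen response genes lie around 0 with 1 called in each direction. The lactogen list was not split by the direction of the known response.

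Of 24 other receptors that signal through JAK kinases, 23 were tested. In hIAPP against WT 10 rose and 2 fell (median 0.19), beside 8.31% of all genes higher and 7.53% lower. Csf3r, the receptor for granulocyte colony-stimulating factor, averaged 2.13 ± 0.575 CPM in hIAPP and 0.464 ± 0.156 in WT (SD, n = 6), a log2 fold change of 2.20 ± 0.22 (edgeR adjusted p = 1.64e-06). Il10ra, an interleukin 10 receptor chain, rose by 0.93 ± 0.12, Il4ra, the interleukin 4 receptor, by 0.50 ± 0.08 and Ifngr2, an interferon gamma receptor chain, by 0.44 ± 0.08 (edgeR adjusted p = 2.04e-05, 0.000261 and 0.000679). For each of these 4 genes all hIAPP mice lay above all WT mice, as for 3.74% of all genes. Macrophage markers rose in the same mice, 10 of 11 called, with no overlap with WT in their summed CPM. With the macrophage score as a covariate 0 of the 23 receptors passed, and Il10ra was at -0.15 (edgeR adjusted p = 0.847). With the acinar score, or without hIAPP 5 and hIAPP 6, 4 rose and 0 fell. Over all genes it was 485 and 290 with the acinar score, and 1037 and 638 without hIAPP 5 and hIAPP 6.

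In rIAPP against WT 9 receptors rose and 2 fell (median 0.27), beside 14.1% of all genes higher and 12.6% lower. Of the 11 macrophage markers 1 rose and 6 fell. With the acinar score as a covariate 2 receptors rose and 2 fell. Lepr, the leptin receptor, rose from 10.4 ± 1.14 CPM in WT (SD, n = 6) to 18.9 ± 1.73 in rIAPP, a log2 fold change of 0.87 ± 0.11 (edgeR adjusted p = 2.72e-06). Lifr, the receptor for leukaemia inhibitory factor, fell by 0.65 ± 0.10 (edgeR adjusted p = 2.48e-05). For both genes the mice of the 2 genotypes did not overlap, as for 14.9% of all genes, and both were called in all 29 alternatives. Il4ra rose by 0.47 ± 0.08 and Ifnar2, an interferon receptor chain, by 0.36 ± 0.06 (edgeR adjusted p = 0.000152 and 0.000183), and the Il4ra call was lost with the acinar score (edgeR adjusted p = 0.113).

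Lepr was 8.08 ± 1.46 CPM in hIAPP (SD, n = 6), and so lower than in rIAPP, with a log2 fold change of -1.23 ± 0.11 (edgeR adjusted p = 3.22e-08). In that comparison 8 receptors were higher in hIAPP and 4 lower (median 0.03), beside 13.5% of all genes higher and 14.1% lower. Csf3r was higher by 2.45 ± 0.23, Il10ra by 1.21 ± 0.12 and Il21r, the interleukin 21 receptor, by 1.55 ± 0.25 (edgeR adjusted p = 6.93e-08, 1.4e-07 and 8.65e-05). Of the 11 macrophage markers 10 were higher in hIAPP here too. With the macrophage score 0 of the 23 receptors were higher and 3 lower, and Il10ra was at -0.04 and Il21r at -0.95 (edgeR adjusted p = 0.958 and 0.471).

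Among 14 genes known to respond to lactogens, 13 were tested. The list was not split by the direction of that response, so its counts and median do not measure a lactogen response. In hIAPP against WT 1 rose, 1 fell and 11 did not pass (median 0.05), beside 8.31% of all genes higher and 7.53% lower. The riser was Igf1, a growth factor gene that growth hormone induces in liver, at 5.37 ± 2.28 CPM in hIAPP and 2.39 ± 0.882 in WT (SD, n = 6), a log2 fold change of 1.17 ± 0.28 (edgeR adjusted p = 0.00691). That call was lost with the acinar score (0.89, edgeR adjusted p = 0.257) and with the macrophage score (-1.16, edgeR adjusted p = 0.588). Igf1 also rose in rIAPP against WT, by 1.24 ± 0.28 (edgeR adjusted p = 0.002), a call lost with the acinar score (0.92, edgeR adjusted p = 0.235). Slc2a2, the glucose transporter of beta cells, fell by 0.79 ± 0.26 (edgeR adjusted p = 0.0433), a call lost in 16 of 29 alternatives, with a value of 1.15 under the macrophage score (edgeR adjusted p = 0.585). It is also 1 of the 8 beta cell markers, of which 6 fell.

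In rIAPP against WT 3 of the 13 rose and 3 fell (median -0.01), beside 14.1% of all genes higher and 12.6% lower. Slc2a2 fell from 1278 ± 96.8 CPM in WT (SD, n = 6) to 351 ± 165.9 in rIAPP, a log2 fold change of -1.86 ± 0.27 (edgeR adjusted p = 2.03e-05). Ccnd2, the cyclin that beta cells use to divide, fell from 764 ± 73.6 to 444 ± 63.4 CPM, a log2 fold change of -0.78 ± 0.09 (edgeR adjusted p = 8.82e-07). Bcl2l1, which encodes the survival protein BCL-XL, rose by 0.45 ± 0.09 (edgeR adjusted p = 0.00075). All rIAPP mice lay on 1 side of all WT mice for these 3 genes, beside 14.9% of all genes, and 7 of the 8 beta cell markers fell in the same mice.

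In hIAPP against rIAPP 3 of the 13 were higher and 3 lower (median 0.06), beside 13.5% of all genes higher and 14.1% lower. Ccnd2 was higher in hIAPP by 0.74 ± 0.09 and Slc2a2 by 1.07 ± 0.26 (edgeR adjusted p = 1.98e-06 and 0.00404). Ehhadh, an enzyme of peroxisomal fat oxidation, was lower, at -0.28 ± 0.07, as was Bcl2l1, at -0.31 ± 0.09 (edgeR adjusted p = 0.0065 and 0.0139).

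Tph1 and Tph2 encode the enzymes that make serotonin from tryptophan. Tph1, the lactogen-induced form, had 0 to 18 counts per library, with medians of 6 in WT, 5 in hIAPP and 10 in rIAPP, and was not tested. Tph2, named outside the naming rule, averaged 0.617 ± 0.239 CPM in WT (SD, n = 6), 0.759 ± 0.334 in hIAPP and 0.410 ± 0.129 in rIAPP, and it was called only in hIAPP against rIAPP (log2 fold change 0.89 ± 0.29, edgeR adjusted p = 0.0287), a call lost in 6 of 29 alternatives.

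Of 10 STAT3 response genes, 6 rose and 0 fell in hIAPP against WT (median 0.47), beside 8.31% of all genes higher and 7.53% lower. In rIAPP against WT 2 rose and 0 fell (median 0.26), beside 14.1% and 12.6%. Pim1 and Pim3, which encode kinases of cell survival, rose in hIAPP by 0.45 ± 0.12 and 0.41 ± 0.11 (edgeR adjusted p = 0.016 and 0.0162). Reg3a and Reg3g, antimicrobial lectins that inflamed pancreas makes, rose by 3.23 ± 0.85 and 3.60 ± 0.91 (edgeR adjusted p = 0.0131 and 0.0101), with hIAPP means of 6.26 ± 7.59 and 0.709 ± 0.837 CPM (SD, n = 6). The WT means were 0.667 ± 0.477 and 0.0581 ± 0.0425 CPM, from 22 to 188 and 0 to 17 counts per library, so Reg3g in WT was near the floor. For both genes hIAPP and WT mice overlapped. Without hIAPP 5 and hIAPP 6 together, 0 of the 10 rose and 1 fell, beside 1037 higher and 638 lower of all 20600 genes. With the acinar or the macrophage score as a covariate 0 passed in hIAPP, and under the latter Reg3a was at -5.91 and Reg3g at -5.02 (edgeR adjusted p = 0.246 and 0.386).

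Myc, a transcription factor of cell growth, rose in rIAPP from 2.96 ± 0.638 CPM in WT (SD, n = 6) to 8.92 ± 0.831, a log2 fold change of 1.59 ± 0.17 (edgeR adjusted p = 3.91e-07). It was called in all 29 alternatives, and all rIAPP mice lay above all WT mice, as for 8.13% of all genes. Pim3 rose by 0.52 ± 0.11 in rIAPP against WT (edgeR adjusted p = 0.00127), a call lost with the acinar score (0.38, edgeR adjusted p = 0.223). In hIAPP against rIAPP 1 of the 10 was higher, Reg3a at 4.05 ± 0.89, and 1 lower, Myc at -1.02 ± 0.16 (edgeR adjusted p = 0.00171 and 8.28e-05). Of all genes, 13.5% were higher and 14.1% lower. The Reg3a call was lost without hIAPP 5 and hIAPP 6 (2.01, edgeR adjusted p = 0.0518) and with the macrophage score (-6.30, edgeR adjusted p = 0.0814). Without those mice 0 of the 10 were higher and 2 lower, beside 2546 higher and 2585 lower of all 20600 genes.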

How the data were processed

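The authors deposited estimated counts per gene symbol for 18 islet libraries. STAR, HTSeq, GRCm38 and mm10 are named in the submitters' processing notes, with no version. Annotation, strand and the step that made 39.2% of the values above 0 not whole (no tolerance allowed) were not given in the sources used here. These values were rounded to whole counts. Each library has its genotype and a number, in label order, as its name, and the numbers pair nothing. The 45 pairs of libraries within a genotype differed by 26.1 to 248 chi-square per degree of freedom, so none repeated another.

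Counts were scaled by TMM, filtered by filterByExpr with genotype as the group, and tested in edgeR 4.0.16 (R 4.3.3). The quasi-likelihood model took in all 18 libraries, with a mean for each genotype, and two-sided tests had Benjamini-Hochberg adjustment over all genes tested in a comparison and a threshold of 0.05. CPM are counts per M of the TMM-scaled total, and 2 was the prior count for log2 CPM. Lengths and positions came from GENCODE M21 on GRCm38, and upstream sequences from RefSeq. Total counts of 109.6 to 166.2 M leave counting error small for all but Socs1. Alternatives used DESeq2 1.42.0, limma-voom (limma 3.58.1), other scalings and filters, fits of only the genotypes compared, the 10 most abundant genes left out, marker scores or the mouse number as covariates, and libraries left out. The fit was tested on simulated data. Plots used Python 3.11.15 with matplotlib 3.10.9.

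The 9 genes, the gene and marker lists and the tests were chosen with earlier results of these data known. Besides the 9, the genes named were up to 4 with the smallest p among those called in each pathway list and comparison, and the pair nearest in profile to each of the 9 that was called at least once. Any other gene is marked where it appears or is named as a ligand, an overlapping gene or a gene not tested. Some genes that this rule names are not reported here, though the counts of their lists include them.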

Additional observations from a re-analysis of the deposited data

Results flagged for a closer look

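A single mouse stood far from the other 5 of its genotype in 2 of the 27 sets of 6 mice examined (9 genes in 3 genotypes), where chance gives about 1 in 20. Ghr in WT 6 was 328 CPM, and the next highest WT mouse had 240.3 CPM. Socs1 in WT 1 was 0.649 CPM, and the next highest WT mouse had 0.445 CPM. The fall of Ghr in rIAPP was called with and without WT 6.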

How the results depend on the processing

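Each comparison was recomputed in 29 alternatives, 18 of which left out 1 library. For hIAPP against WT, 0 of the 9 genes were called, and 1 was called with DESeq2, with a fit of only both genotypes compared, or without rIAPP 4 (0 to 1 with 1 library left out). Over all genes DESeq2 gave 1957 higher and 1927 lower of 20244, and the fit of both genotypes 1544 and 1252 of 19544. Without rIAPP 4 it was 1701 and 1490 of 20464. The 4 calls for rIAPP against WT became 0 with the acinar score as a covariate, and 4 to 6 with 1 library left out. The single call for hIAPP against rIAPP became 4 with DESeq2 or with only both genotypes, 3 without hIAPP 5 and hIAPP 6, 0 with the 10 most abundant genes left out or with the acinar score, the macrophage score or the mouse number as a covariate, and 0 to 4 with 1 library left out. Beside these, DESeq2 called 3012 of all 20244 genes higher and 3094 lower. The fit of only both genotypes called 2667 and 2673 of 19568. Without hIAPP 5 and hIAPP 6 it was 2546 and 2585 of 20600. Over all genes, the 3208 calls for hIAPP against WT became 775 with the acinar score, 34 with the macrophage score and 1675 without hIAPP 5 and hIAPP 6 (2377 to 3919 with 1 library left out). The 5417 calls for rIAPP against WT became 2015 with the acinar score, and the 5586 for hIAPP against rIAPP became 1214 with the macrophage score. Library totals alone moved the median log2 fold change of all genes from -0.01 to 0.11 in hIAPP and from -0.01 to 0.10 in rIAPP against WT, and the share of calls that were higher from 52.5% to 86.7% and from 52.8% to 76.4%. That share for hIAPP against WT was 62.6% with the acinar score and 14.7% with the macrophage score.

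Among the 9 genes, sign changes touched no called value. Among called genes of the related lists, 14 of 31 in hIAPP against WT and 7 of 29 in hIAPP against rIAPP changed sign, all with the macrophage score, and 0 of 26 did in rIAPP against WT. In hIAPP against WT, the macrophage score gave log2 fold changes of 0.33 for Socs1, -0.37 for Socs3, 0.40 for Cish, -0.14 for Stat3, 0.32 for Stat5a and 0.53 for Stat5b, and the acinar score -0.0449 for Socs3 and 0.0386 for Stat5b. Without hIAPP 5 and hIAPP 6 they were -0.00806 for Socs3 and 0.0147 for Stat5b. Limma-voom gave 0.0479 for Cish, and library totals alone 0.0256 for Stat5b and, in rIAPP against WT, 0.0140 for Stat3. In hIAPP against rIAPP the macrophage score gave 1.11 for Socs1 and -0.0606 for Stat3, and Socs1 was at 0.0535 without hIAPP 5 and hIAPP 6. With 1 library left out, values in hIAPP against WT ran from -0.0487 to 0.185 for Prlr, -0.0244 to 0.152 for Socs2, -0.26 to 0.19 for Cish and -0.000337 to 0.0597 for Stat3. In the same runs Cish ran from -0.40 to 0.14 in rIAPP against WT, and in hIAPP against rIAPP Socs1 from -0.24 to 0.13 and Cish from -0.12 to 0.30. The cause of these shifts was not tested. No paired analysis was possible because the numbers of the libraries follow label order and mark no shared animal, litter or day. With 22 to 97 counts per library, counting error limits Socs1 most among the 9 genes.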

Other observations

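The spread between mice differed among genotypes for some of the 9 genes, as values with no test. The coefficient of variation of Prlr was 5.17% in WT, 30.8% in hIAPP and 19.3% in rIAPP. For Cish it was 55.7% in WT, 16.3% in hIAPP and 49.4% in rIAPP. Stat5b had 15.0%, 13.0% and 6.69%, and Socs2 16.4%, 25.5% and 44.6%. WT 6, which had the highest Ghr, had the lowest Socs1, Socs2, Socs3, Cish, Stat5a and Stat5b of the 6 WT mice.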
